A study of Rattus norvegicus with 132 samples.

Results

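The genes of the mitochondrial respiratory chain and ATP synthase were followed in epithelium of colon and jejunum from irradiated rats. Members were taken by symbol: every mitochondrially encoded protein gene (symbols starting with Mt-), and the nuclear genes whose symbols name a subunit of complex I (Nduf), complex II (Sdha to Sdhd), complex III (Uqcr), complex IV (Cox4 to Cox8) or ATP synthase (Atp5). The symbol patterns found 92 of the 21837 genes in the deposited counts, of which 79 are nuclear and 13 are mitochondrial. Of the nuclear members, 36 belong to complex I, 4 to complex II, 7 to complex III, 17 to complex IV and 15 to ATP synthase (complex V). Among them 3 have pseudogene symbols: Ndufv3-ps1 under complex I, and Cox6b1-ps1 and Cox6c-ps1 under complex IV. Of the mitochondrial members, 7 encode subunits of complex I, 1 of complex III, 3 of complex IV and 2 of complex V. Nuclear and mitochondrial members are described apart.

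RNA was sequenced from 132 libraries of Sprague Dawley rats, with 6 libraries in each of 22 groups, and the labels call the replicates biological. The non-irradiated rats had no radiation and no agent. All other rats had abdominal radiation in 5 fractions of 4 Gy, given from day 0 to day 4, and their tissues were taken at day 4 in some groups and at day 7 in the others. Irradiated rats had no agent (untreated), water by mouth (oral vehicle), compound Kushen powder by mouth, an intraperitoneal vehicle of HEPES at 25 mM with Tween-80 at 0.25% (injected vehicle), or compound Kushen injection by the same route. Compound Kushen is a herbal preparation, and some sample descriptions call the oral form a pill. The labels give no age, sex or dose of the preparations. No transgene or deletion is named in any group.

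In the respiratory chain, complexes I and II pass electrons from NADH and succinate to ubiquinone, complex III passes them to cytochrome c, and complex IV passes them to oxygen. Complexes I, III and IV pump protons across the inner membrane, and ATP synthase uses the gradient to make ATP. The mitochondrial genome encodes a few core subunits, read as long transcripts from both strands by the polymerase Polrmt with Tfam and Tfb2m, and all other subunits are imported from the cytosol. Nuclear subunit genes are known targets of the factors Nrf1, Gabpa, Yy1 and Esrra and of their coactivator Ppargc1a. In the gut, differentiated absorptive cells are rich in mitochondria, while crypt base stem cells and dividing progenitors use more glycolysis.

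Promoter sequences of 68 of the 79 nuclear members were matched by symbol to a RefSeq table of the rat genome build GRCr8, each covering 250 bases before to 50 bases after the gene's start. The counts were made on mRatBN7.2, so these coordinates are not those of the counts. Most nuclear members stood lower after irradiation (described below by complex). Their number, and in jejunum at day 7 their direction, depended on the library series or the scaling, as given below. Known motifs were searched on both strands: GCGCNTGCG for NRF1, CCGGAAGT for ETS factors such as GABPA, AAGATGGCG for YY1, TCAAGGTCA for ERR factors and TACGTG for the hypoxia response. The NRF1 letters stood in 17 of the 68 promoters (25.0%), against 5.752% of all 33469 promoters of the same length. The ETS letters stood in 7 (10.29%, against 3.807%) and the YY1 letters in 10 (14.71%, against 1.733%). Any of these 3 motifs was found in 32 members (47.06%, against 10.338%). The ERR letters were found in 2 members (2.94%, against 0.433%), and the hypoxia letters also in 2 (2.94%, against 3.49%). No matches of different motifs overlapped, and in 8 of the 10 members with the YY1 letters the match began at or after the start. All promoters of that length were counted, whether or not their genes were detected here, and no set of promoters matched for expression was compared. A match is a description of letters, not a bound site, and a link of the motifs to the fall was not tested.

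Shown first are promoters of 3 members that carry a motif, in capitals: Sdha, the flavoprotein of complex II, with 3 NRF1 matches (chr1:30764303-30764602 on the plus strand), Cox5b of complex IV with an ETS match (chr9:46417587-46417886 on the plus strand), and Ndufa6 of complex I with a YY1 match (chr7:115750268-115750567 on the minus strand). The promoters of Cox7a1 (chr1:94568966-94569265 on the plus strand) and Ndufa4 (chr4:40975510-40975809 on the minus strand) are shown because the former gene had the largest fall among well detected nuclear members and the latter rose in colon. Neither holds any of the 5 motifs, so they carry no capitals. All sequences run 5′ to 3′ on the gene's strand.
Sdha: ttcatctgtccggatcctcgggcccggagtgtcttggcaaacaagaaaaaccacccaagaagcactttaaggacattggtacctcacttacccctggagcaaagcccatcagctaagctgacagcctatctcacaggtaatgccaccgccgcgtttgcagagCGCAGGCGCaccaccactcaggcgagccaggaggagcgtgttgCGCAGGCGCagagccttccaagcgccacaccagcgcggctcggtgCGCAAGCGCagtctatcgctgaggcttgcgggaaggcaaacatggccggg
Cox5b: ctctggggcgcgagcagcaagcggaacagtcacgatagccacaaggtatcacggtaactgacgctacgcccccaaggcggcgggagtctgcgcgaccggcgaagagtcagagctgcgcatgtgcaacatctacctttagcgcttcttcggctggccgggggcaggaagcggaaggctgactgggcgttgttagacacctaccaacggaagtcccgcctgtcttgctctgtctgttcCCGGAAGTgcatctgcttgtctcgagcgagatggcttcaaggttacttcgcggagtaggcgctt
Ndufa6: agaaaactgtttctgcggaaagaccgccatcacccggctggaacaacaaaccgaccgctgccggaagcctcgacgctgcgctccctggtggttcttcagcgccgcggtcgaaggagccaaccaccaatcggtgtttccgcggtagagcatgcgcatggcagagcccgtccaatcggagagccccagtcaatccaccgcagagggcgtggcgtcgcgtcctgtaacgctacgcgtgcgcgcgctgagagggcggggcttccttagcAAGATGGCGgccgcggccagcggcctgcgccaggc
Cox7a1: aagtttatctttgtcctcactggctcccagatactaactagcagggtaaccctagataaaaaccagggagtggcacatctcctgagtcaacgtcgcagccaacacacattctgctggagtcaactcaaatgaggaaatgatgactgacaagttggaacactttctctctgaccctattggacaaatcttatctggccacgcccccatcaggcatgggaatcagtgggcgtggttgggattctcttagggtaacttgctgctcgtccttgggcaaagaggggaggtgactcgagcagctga
Ndufa4: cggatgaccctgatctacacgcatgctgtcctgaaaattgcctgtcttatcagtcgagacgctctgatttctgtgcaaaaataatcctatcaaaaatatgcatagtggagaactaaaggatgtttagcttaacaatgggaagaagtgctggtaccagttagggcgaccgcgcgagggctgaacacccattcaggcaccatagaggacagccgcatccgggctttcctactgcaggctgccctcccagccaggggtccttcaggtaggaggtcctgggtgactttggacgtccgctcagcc

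The deposited values are raw counts, with 17.2 to 19.8 M counts per library (median 19.1 M). Levels below are CPM, counts scaled to library size with TMM factors, and are compared between groups of libraries, not between genes. Differences are on the log2 scale, where 1 is a doubling, with the standard error (SE) of the fit. A gene is called where its adjusted p from edgeR's quasi-likelihood test (Benjamini-Hochberg over all genes tested) is under 0.05. In colon 70 of the 79 nuclear members passed the filter on low counts, in jejunum 69, and all 13 Mt- genes passed in both. Of these, 68 nuclear members in colon and 67 in jejunum had at least 10 counts in every library, so they did not pass through a single high group. The pseudogene symbol Ndufv3-ps1 passed in both tissues with fewer than 10 counts in some libraries, and it enters the nuclear counts below. The other pseudogene symbols did not pass. The members that did not pass include the muscle isoform Cox6a2, the testis isoforms Cox8c and Cox7b2, the hypoxia-linked Ndufa4l2 and, only in jejunum, Cox4i2. Uqcrb and Ndufs6, subunits that every respiring cell uses, also did not pass, with 361 and 491 counts over all libraries. Near-identical copies could take their reads, and the counting is not stated, so their levels are uncertain, as are the low levels of Ndufa1, Ndufa3 and Atp5mc1. Cox8a, Cox8b and Cox7a2 have no entry under these symbols and are not analysed here.

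Libraries fall into 3 series by the first digit of their names. Replicates 1 to 3 of the non-irradiated, untreated, oral vehicle and powder groups are of series 1 and replicates 4 to 6 of series 2, and series was a term of those fits. All injected groups are of series 3 and were compared only with each other. In bulk tissue, fewer cells of a type and less RNA per cell cannot be told apart. The epithelial markers (7 of 8 in the tables, Epcam and keratins among them) summed to a mean of 12661 CPM in non-irradiated colon and 25746 CPM in non-irradiated jejunum. Markers of other cells moved with irradiation in colon: the 4 neutrophil markers summed to 0.207 to 0.926 CPM without irradiation, 6.48 to 96.0 at day 4 and 17.8 to 38.2 at day 7, and all 4 were called higher at both days. The 6 fibroblast markers, all called higher, went from 8.38 (4.29 to 11.0) to 48.6 (25.2 to 86.3) and 70.0 CPM (11.3 to 215). Colonocyte markers (4 of 5 in the tables) summed to 19108, 6407 and 2975 CPM in the same order, with 1 of 4 called lower at each day. The 4 proliferation markers summed to 155, 197 and 460.0 CPM in colon and to 61.3, 103 and 285 CPM in jejunum, with 4 of 4 called higher at day 7 in both tissues. Enterocyte markers (6 of 7) summed to 65634, 70789 and 27581 CPM in jejunum, with 3 of 6 called lower at day 7 and none at day 4. The part of these markers in the results below was not tested.

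The 13 Mt- genes took a smaller share of all counts at day 7 than at day 4 in every irradiated arm of both tissues. In colon the share was 12.3% ± 1.26 (SD, n = 6) without irradiation, 9.16% ± 1.02 at day 4 and 3.95% ± 0.607 at day 7 in untreated rats. The day 7 libraries of untreated colon ran from 3.24% to 4.82% (median 3.97%) and lay below every non-irradiated and every day 4 library of that arm. With oral vehicle the colon share was 8.40% ± 1.88 at day 4 and 4.29% ± 0.949 at day 7, and with powder it was 9.58% ± 1.99 and 4.04% ± 0.61. With injected vehicle the colon share was 11.8% ± 4.01 and 6.27% ± 1.15, and with injection 10.7% ± 2.20 and 7.23% ± 2.19. Day 4 and day 7 libraries did not overlap in the untreated, oral vehicle, powder and injected vehicle arms of colon, and overlapped with injection.

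In jejunum the non-irradiated libraries parted by series. Those of series 1 held 5.82% to 7.25% of counts in Mt- genes and those of series 2 held 12.5% to 20.9%, with no overlap. Together they gave 12.3% ± 6.95. Untreated jejunum had 12.7% ± 5.86 at day 4 and 5.39% ± 1.83 at day 7. Within series 1 the day 7 libraries (4.35% to 8.70%) overlapped the non-irradiated ones, and within series 2 they (3.66% to 5.29%) lay below all of them. The widest spread was in injected jejunum at day 4, from 7.78% to 31.0% (median 15.3%) with vehicle and from 12.6% to 38.0% (median 19.9%) with injection. At day 7 the same arms ran from 3.62% to 9.95% (median 6.33%) and from 6.13% to 9.16% (median 6.34%), and with injection no day 7 library reached the lowest day 4 library. The same held with powder, where jejunum ran from 7.34% to 10.6% (median 9.18%) at day 4 and from 4.22% to 6.31% (median 5.12%) at day 7, while the day 4 and day 7 libraries overlapped in the other 3 jejunal arms.

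The nuclear members followed another course. As a share of the counts outside Mt- genes they held 2.48% ± 0.0769 in non-irradiated colon, 1.71% ± 0.377 at day 4 and 1.80% ± 0.351 at day 7 of untreated rats. The lowest non-irradiated colon library (2.37%) lay above every untreated irradiated one. In jejunum the nuclear share was 2.14% ± 0.342 without irradiation, 1.45% ± 0.402 at day 4 and 2.14% ± 0.22 at day 7. Its day 7 value was thus at the non-irradiated level, while the Mt- share of the same libraries was lower. The jejunal means at day 4 and day 7 were 1.73% and 2.00% with oral vehicle, 1.58% and 2.25% with powder, 1.49% and 2.27% with injected vehicle, and 1.55% and 2.12% with injection. In colon the same means were 1.66% and 1.43%, 2.26% and 1.53%, 1.42% and 1.63%, and 1.64% and 1.43%. So the mean nuclear share was higher at day 7 than at day 4 in all 5 jejunal arms, and in colon only in the untreated and injected vehicle arms. These shares are descriptions of the libraries and were not tested.

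**Figure D1:**
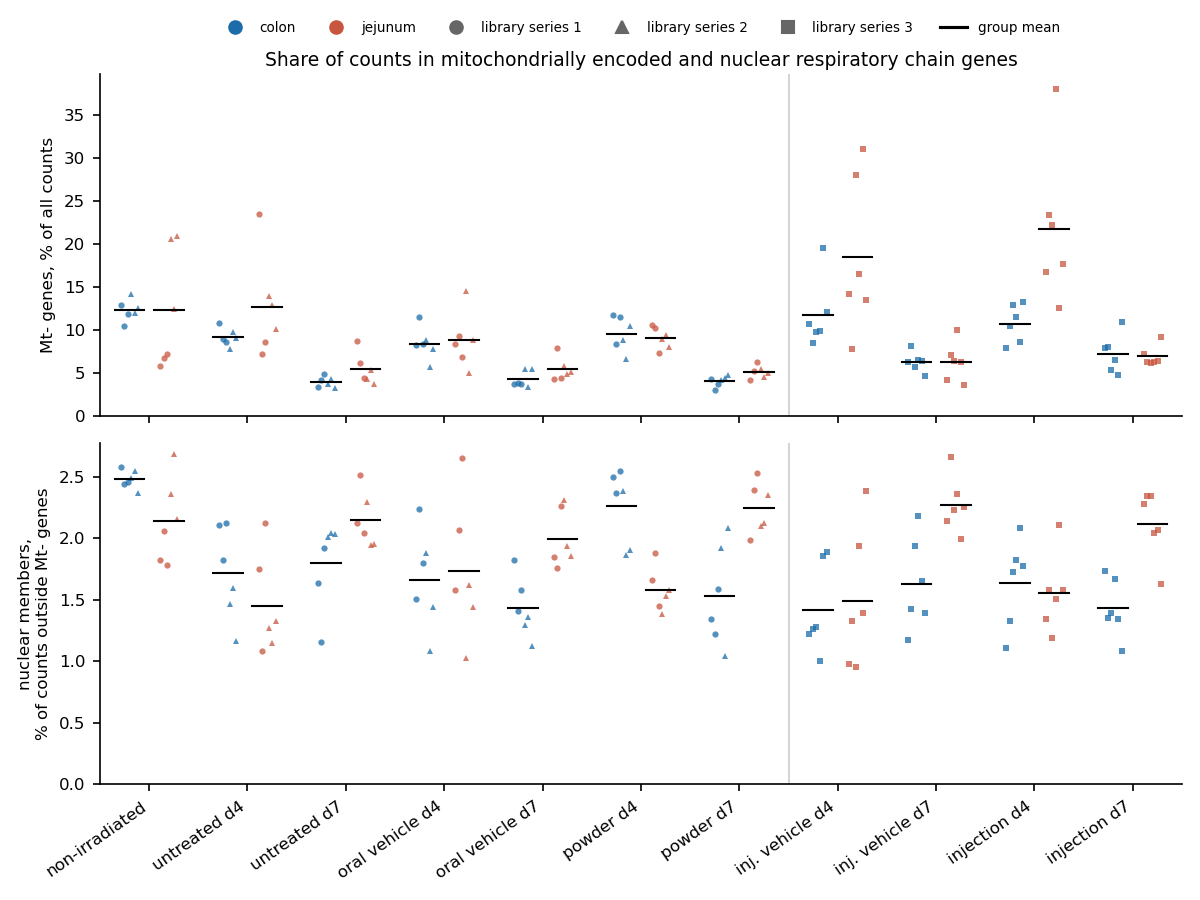
Share of counts per library (y axes, percent) in the 13 Mt- genes (upper plot, of all counts) and in the nuclear members (lower plot, of counts outside Mt- genes) for the 11 conditions on the x axis, colon in blue and jejunum in red. Points are libraries, shaped by library series, lines are group means, and the vertical line parts the injected groups, which were not compared with the others. The Mt- share of untreated colon falls from a mean of 12.3% without irradiation to 3.95% at day 7, and non-irradiated jejunum parts by series.

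Before irradiation the tissues already differed. In jejunum against colon (12 non-irradiated libraries within the 84 of the tissue fit) 33 nuclear members were called higher and 2 lower of 70 tested. Of the 13 Mt- genes 10 were called higher. Of all genes tested 70.5% were called, 29.4% higher and 41.1% lower, so the members lie above the higher share and below the lower one. The 2 lower members include Cox4i2, with 1 count over the non-irradiated jejunal libraries and 23 over the colonic ones, so it supports nothing here. The 33 higher ones include the pseudogene symbol Ndufv3-ps1, which is at a low level. The nuclear median was 0.40 and the Mt- median 1.45, against -0.22 for all genes. These values, those of the Mt- genes included, depend on the scaling. Total counts shifted the median of all genes by -0.65, and the mean Mt- share of all counts, given above, was alike in both tissues. Ndufa4 ran from 25.1 to 30.5 CPM (median 26.4) in colon and from 42.1 to 145 CPM (median 66.7) in jejunum, a difference of 1.55 ± 0.21 (SE), adjusted p = 7.03e-10. Cox7a1 ran from 54.3 to 88.1 CPM (median 67.7) and from 229 to 339 CPM (median 254), with 1.86 ± 0.62 (SE), adjusted p = 0.0061. For both genes every jejunal library lay above every colonic one. Ndufa7, an accessory subunit of complex I, ran the other way (-0.84 ± 0.13 (SE), adjusted p = 6.46e-08). Mt-nd6, the only protein gene on the light strand, had from 15.5 to 32.2 CPM (median 20.6) in colon and from 103 to 499 CPM (median 275) in jejunum (3.73 ± 0.37 (SE), adjusted p = 2.56e-14). The direction of the nuclear count depends on the scaling: with total counts in place of TMM factors 3 were higher and 25 lower, with the median of all genes at -0.87, so relative to all genes the nuclear median (-0.27) stayed above it. With series 1 alone 10 nuclear members were higher and 4 lower and 2 Mt- genes higher, and with series 2 alone 41 and 1, and 13.

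Irradiated untreated rats were compared with non-irradiated rats to ask what irradiation did to these genes. Both days of a tissue share the same 6 non-irradiated libraries. In colon at day 4, 53 of 70 nuclear members were called lower and 1 higher, where 46.9% of all genes were called and 22.3% were lower. The higher one is Cox4i2, which passed the filter on low counts only through irradiated groups and supports nothing here. At day 7, 46 were lower and 1 higher, where 63.6% of all genes were called and 30.8% were lower. In jejunum 59 of 69 were lower and none higher at day 4 (44% of all genes called, 18.9% lower), and 36 were lower and none higher at day 7 (58.8% called, 27.4% lower and 31.4% higher). The median difference of the nuclear members was -0.55 and -0.52 in colon and -0.63 and -0.41 in jejunum, with the median of all genes between 0.02 and 0.05. The Mt- genes were called mostly at day 7: 2 of 13 were lower at day 4 and 11 at day 7 in colon, and 0 at day 4 and all 13 at day 7 in jejunum. For that count of 0, edgeR and DESeq2 also gave 0 genes at an unadjusted p under 0.05.

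How far the groups parted differed between the tissues. In colon at day 4 the 6 irradiated and 6 non-irradiated libraries did not overlap for 51 nuclear members that were lower and 1 that was higher of 70. The higher one is Cox4i2, which supports nothing here. Of all genes 26.8% did not overlap, with 13.7% lower. At day 7 the count was 44, all lower (41.6% of all genes, 20.8% lower). In jejunum it was 3 of 69 at day 4 (9.89% of all genes, 4.3% lower) and 6 at day 7 (26.5%, 10.8% lower), all lower. The jejunal counts lie near or below the lower shares of all genes. Single libraries and the series weigh on these counts. Without the libraries numbered 4 in every group 27 colon members were lower at day 4, and without those numbered 6 it was 33. In jejunum the day 4 count was 21 without the libraries numbered 5, and the day 7 count was 7 without those numbered 5 and 14 without those numbered 6. Within series 1 alone 1 colon member was lower at day 4 and 0 jejunal members were lower at either day, and within series 2 alone the counts were 50 in colon at day 4 and 64 and 49 in jejunum. At day 7 in colon 55 were lower within series 1 and 21 within series 2. With total counts in place of TMM factors the jejunal nuclear members at day 7 turned to 13 higher and 3 lower, with the median of all genes at 0.53 and that of the members at 0.09.

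**Figure D2:**
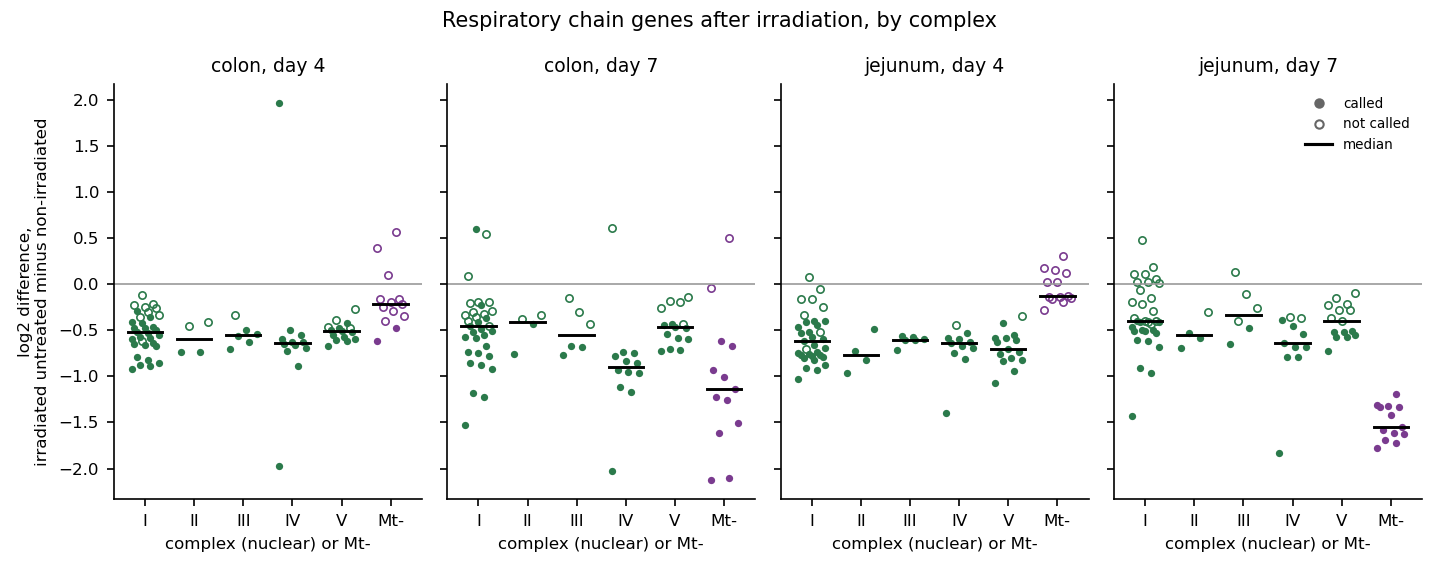
Log2 difference of irradiated untreated against non-irradiated rats (y axis) for each nuclear member by complex and for the 13 Mt- genes (x axis), at day 4 and day 7 in colon and jejunum. Filled points are called, open points are not, and lines are medians. Most nuclear members lie below 0 at both days with TMM factors (jejunum at day 7 turns with total counts), with a colon median of -0.55 at day 4, while the Mt- genes have medians of -0.22 in colon and -0.13 in jejunum at day 4 and -1.14 and -1.54 at day 7.

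Complex I is the NADH dehydrogenase, with core subunits that carry the flavin and iron-sulfur centres and many accessory subunits around them. Of the 33 nuclear complex I members tested, 24 were called lower in colon at day 4 and 20 at day 7 (1 higher), and 25 and 15 in jejunum. Split into core and accessory subunits, a split chosen after the values were seen, 5 of 6 core members were lower at day 4 and 2 at day 7 in colon, and 6 and 3 in jejunum. Of the 27 accessory members, 19 and 18 were lower in colon and 19 and 12 in jejunum. Core and accessory subunits of a complex are not independent observations, and the split was not tested.

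Ndufs1, the largest iron-sulfur core subunit, ran from 207 to 291 CPM (median 258) in non-irradiated jejunum, from 117 to 279 CPM (median 139) at day 4 and from 262 to 355 CPM (median 280.0) at day 7. It fell at day 4 (-0.69 ± 0.16 (SE), adjusted p = 0.000801) and was not called at day 7 (0.19 ± 0.16 (SE), adjusted p = 0.306). At day 4, 1 of the 6 libraries stood at the non-irradiated level and the other 5 lay below all non-irradiated libraries. In colon Ndufs1 passed the test at neither day (-0.24 and 0.09). Ndufv1, the flavin subunit that takes electrons from NADH, fell at day 4 in colon (-0.58 ± 0.23 (SE), adjusted p = 0.0356) and jejunum (-0.52 ± 0.19 (SE), adjusted p = 0.0303), and at day 7 stood at -0.20 and 0.05, not called. Ndufv2, its partner in the same module, fell in all 4 comparisons, by 0.79 and 0.78 in colon and 1.03 and 0.51 in jejunum on the log2 scale.

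Several accessory subunits were lower at both days. Ndufb2 ran from 139 to 165 CPM (median 151) in non-irradiated colon, from 52.6 to 101 CPM (median 79.4) at day 4 and from 43.2 to 77.6 CPM (median 70.6) at day 7, with differences of -0.92 ± 0.20 (SE), adjusted p = 0.000338 and -1.22 ± 0.20 (SE), adjusted p = 2.83e-06. Neither irradiated group overlapped the non-irradiated one. In jejunum Ndufb2 differed by -0.76 (adjusted p = 0.00115) and -0.91 (adjusted p = 8.64e-05), again without overlap. Ndufa6, whose promoter holds the YY1 letters, stood at -0.85 and -1.18 in colon and -0.75 and -0.61 in jejunum, all called. Ndufb8, a membrane-arm subunit often probed as a sign of assembled complex I, fell at day 4 in both tissues (-0.65 and -0.79), was called in colon at day 7 (-0.52) and not in jejunum (-0.36). The smallest called falls in colon at day 4 were those of Ndufa2 (-0.30), Ndufb11 (-0.36) and Ndufc1 (-0.41), and in jejunum those of Ndufb6 (-0.40), Ndufa5 (-0.40) and Ndufb4 (-0.41).

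Ndufa4 stood apart from the other Nduf genes. Its product was first assigned to complex I and is now counted with complex IV, and here it is kept with complex I by its symbol. In colon it ran from 25.1 to 30.5 CPM (median 26.4) without irradiation, from 17.4 to 28.4 CPM (median 23.9) at day 4 and from 29.4 to 48.5 CPM (median 42.3) at day 7. It was the only nuclear member called higher at day 7 (0.60 ± 0.13 (SE), adjusted p = 0.000196), and the groups overlapped, since 1 day 7 library lay within the non-irradiated range. Ndufa1, an accessory subunit on the X chromosome, had the opposite course: from 2.67 to 5.00 CPM (median 4.16) without irradiation, from 1.80 to 3.35 CPM (median 2.79) at day 4 and from 1.01 to 1.73 CPM (median 1.41) at day 7 in colon, with -1.53 ± 0.21 (SE), adjusted p = 1.93e-07 at day 7 and no overlap. In jejunum at day 7 it differed by -1.43 ± 0.26 (SE), adjusted p = 2.43e-05. Ndufa1 is under the level set for named genes and was chosen after its values were seen, and reads of near-identical copies could not be told apart.

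Complex II, succinate dehydrogenase, is also a citric acid cycle enzyme and has no mitochondrially encoded subunit. In colon 2 of its 4 members were called lower at each day, and in jejunum 4 at day 4 and 3 at day 7. Sdhb, the iron-sulfur subunit, ran from 324 to 365 CPM (median 346) in non-irradiated colon, from 105 to 274 CPM (median 229) at day 4 and from 103 to 255 CPM (median 236) at day 7. It fell in all 4 comparisons, with -0.73 ± 0.25 (SE), adjusted p = 0.0182 in colon at day 4 and -0.73 ± 0.23 (SE), adjusted p = 0.00995 in jejunum at day 4, and its colon groups did not overlap at either day. The flavoprotein Sdha, with its 3 NRF1 matches, passed the test only in jejunum at day 4 (-0.82 ± 0.20 (SE), adjusted p = 0.00169), and stood at -0.45 and -0.34 in colon and -0.31 in jejunum at day 7. The membrane anchor Sdhd fell by 0.96 on the log2 scale in jejunum at day 4 and by 0.69 at day 7.

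Of the 6 complex III members tested, 5 were lower at day 4 and 3 at day 7 in colon, and 6 and 2 in jejunum. Uqcrfs1, the Rieske iron-sulfur protein, fell at day 4 in colon (-0.63 ± 0.22 (SE), adjusted p = 0.0205) and jejunum (-0.60 ± 0.19 (SE), adjusted p = 0.0112), and its day 7 differences of -0.43 and -0.26 were not called. The core protein Uqcrc1 behaved alike, with -0.56 and -0.57 at day 4, both called, and -0.31 and -0.11 at day 7, neither called, the last turning to 0.39 with total counts. The small subunits Uqcrq and Uqcr10 were the 2 called in jejunum at day 7 (-0.65 and -0.48), and with Uqcrh they were the 3 called in colon at day 7.

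Complex IV, cytochrome c oxidase, had the lowest nuclear medians at day 7, -0.89 in colon and -0.64 in jejunum, beside -0.64 and -0.64 at day 4. In colon 11 of 12 tested members were lower at each day, and in jejunum 10 of 11 at day 4 and 9 at day 7. Cox4i1, the ubiquitous form of subunit 4, ran from 1239.5 to 1455 CPM (median 1414) in non-irradiated colon, from 597 to 1049 CPM (median 905) at day 4 and from 392 to 792 CPM (median 657) at day 7. Its differences were -0.69 ± 0.20 (SE), adjusted p = 0.00508 at day 4 and -1.17 ± 0.20 (SE), adjusted p = 5.81e-06 at day 7, and every irradiated library lay below every non-irradiated one. In jejunum Cox4i1 differed by -0.81 ± 0.20 (SE), adjusted p = 0.00163 and -0.79 ± 0.20 (SE), adjusted p = 0.00117, with overlap at both days. Cox5a was called in all 4 comparisons (-0.63, -0.85, -0.59 and -0.46), as was Cox6c (-0.55, -0.93, -0.75 and -0.64). Cox6a1, the ubiquitous form of subunit 6a, was called in 3 of them, at -0.50, -0.96 and -0.79, and stood at -0.45 in jejunum at day 4. With total counts in place of TMM factors Cox5a in jejunum at day 7 was at 0.06.

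Cox7a1, known as the heart and skeletal muscle form of subunit 7a, fell most among well detected nuclear members in all 4 comparisons. In colon it ran from 54.3 to 88.1 CPM (median 67.7) without irradiation, from 2.20 to 34.0 CPM (median 19.6) at day 4 and from 4.54 to 34.9 CPM (median 16.3) at day 7. In jejunum it ran from 229 to 339 CPM (median 254), from 40.5 to 202 CPM (median 84.4) and from 23.4 to 167 CPM (median 74.3) in the same order. No irradiated library of either tissue reached the lowest non-irradiated one. The differences were -1.97 ± 0.61 (SE), adjusted p = 0.00877 and -2.03 ± 0.60 (SE), adjusted p = 0.00399 in colon and -1.40 ± 0.49 (SE), adjusted p = 0.0199 and -1.83 ± 0.49 (SE), adjusted p = 0.00204 in jejunum. No marker of cardiac or skeletal muscle was called lower in these comparisons, and 1 or 2 of the 2 tested were called higher in each. The sum of all 6 had a median of 7.98 CPM in non-irradiated colon, 12.9 at day 4 and 7.41 at day 7, and 71.3, 237 and 109.9 CPM in jejunum. Of the 8 smooth muscle markers none was called in colon at either day, and in jejunum 3 of 7 were called higher at each day.

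Cox4i2, the form of subunit 4 known from lung and linked to low oxygen, stood at 1.96 in colon at day 4. It had under 10 counts in each non-irradiated library and passed the filter on low counts through irradiated groups, where it is high, so this difference is a description and no test is read from it. It rests on few reads: 23 counts over the 6 non-irradiated libraries, 97 at day 4 and 42 at day 7. Its levels ran from 0.0516 to 0.287 CPM (median 0.213) without irradiation and from 0.38 to 1.29 CPM (median 0.67) at day 4, without overlap, and at day 7 the difference was 0.61. The fibroblast and neutrophil markers given above rose in the same colon libraries, and their part in this difference was not tested. Cox7a2l, known as a factor that joins complexes III and IV into supercomplexes, fell in colon by 0.89 and 0.83 on the log2 scale, without overlap, and in jejunum by 0.54 and 0.39. Its near copy Cox7a2l2 differed by -0.65, -0.96, -0.69 and -0.68, and reads may be split between this pair.

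ATP synthase members were lower in 11 of 15 cases in colon at day 4 and 10 at day 7, and in 14 and 7 of 15 in jejunum. The catalytic subunit Atp5f1b ran from 3993 to 5303 CPM (median 4329) in non-irradiated jejunum, from 2175 to 4337 CPM (median 2428) at day 4 and from 2835 to 4840.4 CPM (median 4051) at day 7. It fell at day 4 in both tissues (-0.60 ± 0.24 (SE), adjusted p = 0.0342 in colon and -0.73 ± 0.20 (SE), adjusted p = 0.00309 in jejunum) and was called at day 7 in neither (-0.43 and -0.22). Its partner Atp5f1a passed only in jejunum at day 4 (-0.94 ± 0.20 (SE), adjusted p = 0.000367). Atp5po, the stalk subunit that holds the catalytic head, fell most of this complex in jejunum (-1.07 ± 0.22 (SE), adjusted p = 0.000261 at day 4 and -0.73 ± 0.22 (SE), adjusted p = 0.0055 at day 7), without overlap at either day. Atp5if1, the inhibitor of the enzyme's reverse reaction, was lower in all 4 comparisons, by 0.50 and 0.72 in colon and 0.58 and 0.52 in jejunum on the log2 scale. Atp5mc1, a gene for the membrane ring, was called only in jejunum at day 4 (-0.62), at a level under 5 CPM.

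**Figure D3:**
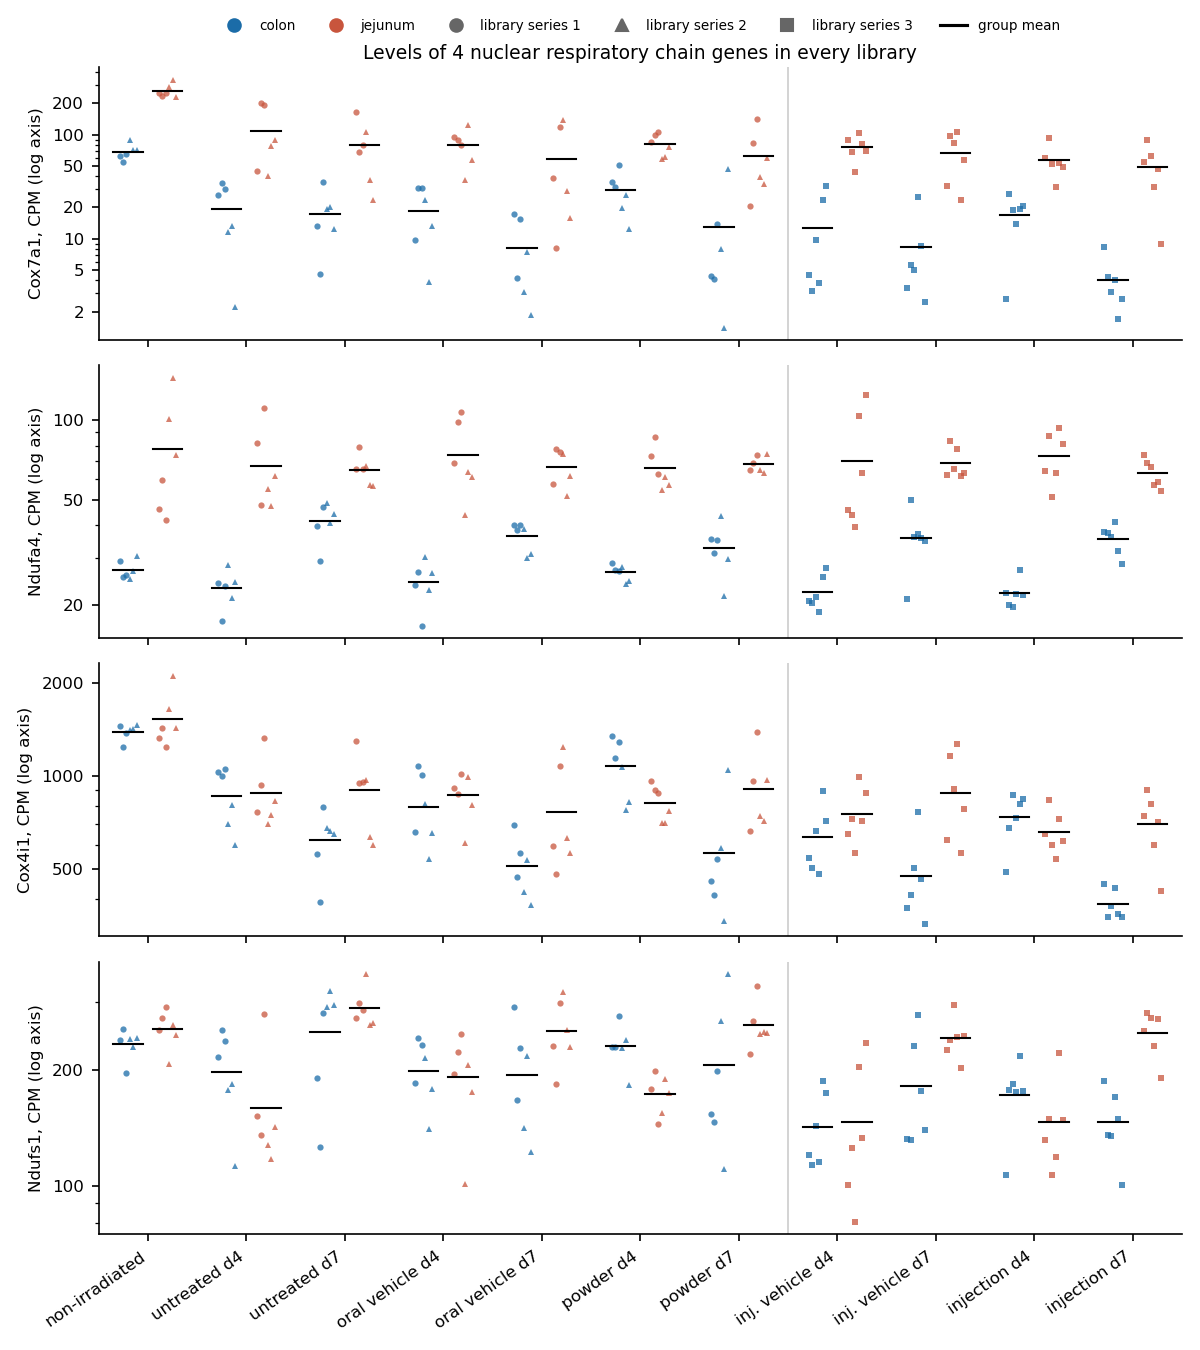
Levels in CPM on a log axis (y axes) of Cox7a1, Ndufa4, Cox4i1 and Ndufs1 in every library of the 11 conditions (x axis), colon in blue and jejunum in red. Points are libraries, shaped by series, and lines are group means. Cox7a1 lies between 54.3 and 88.1 CPM in non-irradiated colon and below that in every untreated irradiated library, while Ndufa4 in colon has its highest untreated libraries at day 7.

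Among the mitochondrially encoded genes, the 3 cytochrome c oxidase subunits, the 2 ATP synthase subunits, cytochrome b and the 7 complex I subunits did not fall by the same amount in colon. Mt-co1, the catalytic subunit of complex IV, ran from 57728 to 90229 CPM (median 72714) without irradiation, from 38059 to 55406 CPM (median 47414) at day 4 and from 12514 to 25699 CPM (median 15346) at day 7. Its differences were -0.62 ± 0.21 (SE), adjusted p = 0.0168 and -2.13 ± 0.22 (SE), adjusted p = 5.78e-10, and neither irradiated group overlapped the non-irradiated one. Mt-co3 differed by -0.47 ± 0.18 (SE), adjusted p = 0.0292, with overlapping groups, and by -2.10 ± 0.19 (SE), adjusted p = 3.99e-11, without overlap. These were the only Mt- genes called in colon at day 4, and without the libraries numbered 4, or those numbered 6, neither was. Within series 1 alone no Mt- gene was called at day 4, and within series 2 alone 2 were higher and 2 lower. At day 7 the other called genes were Mt-atp8 (-1.61), Mt-nd2 (-1.50), Mt-atp6 (-1.25), Mt-cyb (-1.22), Mt-co2 (-1.14), Mt-nd4 (-1.01), Mt-nd4l (-0.93), Mt-nd1 (-0.67) and Mt-nd3 (-0.61). All of these but Mt-nd3 had non-overlapping groups. The fall at day 7 was called for 11 genes within series 1 and for 10 within series 2.

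Mt-nd5 and Mt-nd6 did not follow in colon. Mt-nd5 ran from 326 to 481 CPM (median 433) without irradiation and from 318 to 468 CPM (median 438) at day 7, a difference of -0.04 ± 0.19 (SE), adjusted p = 0.865. Mt-nd6 ran from 15.5 to 32.2 CPM (median 20.6) and from 21.6 to 39.3 CPM (median 35.1), with 0.50 ± 0.26 (SE), adjusted p = 0.0933. Both groups overlapped for each gene. Mt-nd5 lies late in the long heavy-strand transcript, and Mt-nd6 lies on the opposite strand, between Mt-nd5 and Mt-cyb. Mt-cyb, the last gene of that transcript, was among the genes called lower above, and the part of position was not tested. Mt-atp8 overlaps Mt-atp6 and Mt-nd4l overlaps Mt-nd4, so reads in the overlaps cannot be assigned with certainty, and without a stated strand setting the same holds for Mt-nd6 and transcripts of the other strand.

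In jejunum no Mt- gene was called at day 4 and all 13 were at day 7, with differences from -1.77 (Mt-co3) to -1.19 (Mt-nd4l), a narrower range than in colon. Mt-co1 ran from 46243 to 166326 CPM (median 81936) without irradiation, from 63016 to 132218 CPM (median 82971) at day 4 and from 15179 to 58949 CPM (median 25662) at day 7 (-1.69 ± 0.34 (SE), adjusted p = 8.01e-05). The groups overlapped for all 13 genes. The jejunal fall rests on series 2: its Mt- median was -2.65 with 13 genes lower, while within series 1 it was -0.11 with 0 called, and Mt-nd1, Mt-nd3, Mt-nd4l and Mt-nd4 stood at 0.16, 0.19, 0.01 and 0.20. At day 4 the series pointed apart, with 2 Mt- genes higher within series 1 and 3 lower within series 2. The Mt- share of non-irradiated jejunum, given above, differed between the same series.

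The make-up of the Mt- counts shifted in colon. Mt-co1 took 63.3% ± 1.26 of Mt- counts in non-irradiated colon, 58.6% ± 4.14 at day 4 and 52.0% ± 3.45 at day 7 of untreated rats. The day 7 libraries ran from 47.6% to 57.3% (median 52.4%), below the lowest non-irradiated library (61.7%). Over the same groups Mt-nd1 went from 1.37% ± 0.155 to 3.10% ± 0.228 and Mt-nd5 from 0.363% ± 0.0537 to 1.29% ± 0.164 of Mt- counts. In jejunum Mt-co1 took 52.5% ± 3.02 without irradiation and 49.3% ± 1.36 at day 7, with overlapping groups. The Mt-nd5 share of day 7 colon (1.01% to 1.51%) thus lay within the range of non-irradiated jejunum (0.889% to 1.62%). These shares do not depend on the scaling between libraries and were not tested.

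**Figure D4:**
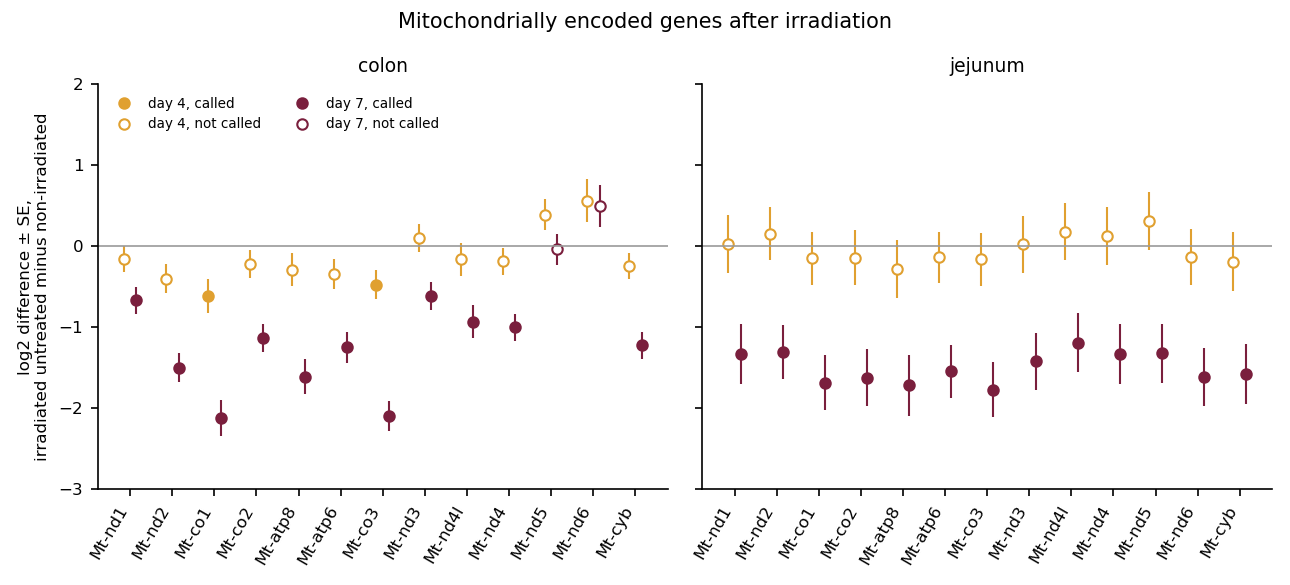
Log2 difference with its SE (y axis) of irradiated untreated against non-irradiated rats for the 13 Mt- genes in order along the mitochondrial genome (x axis), at day 4 and day 7. Filled points are called. In colon at day 7 the values run from -2.13 for Mt-co1 to 0.50 for Mt-nd6, and in jejunum all 13 lie between -1.77 and -1.19.

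Whether the response differed between tissues was tested as an interaction in the 84 libraries of both tissues, where colon and jejunum libraries may come from the same rats. At day 4 no member was called (21.8% of all genes were), with 1 nuclear member and 0 Mt- genes at an unadjusted p under 0.05 by edgeR, 2 and 0 by DESeq2, and 0 called by DESeq2. Within series 1 alone 2 nuclear members and 7 Mt- genes had a higher response in jejunum, and within series 2 alone 1 and 2 had a lower one. At day 7, 5 nuclear members had a higher and 1 a lower response in jejunum, and 2 Mt- genes a lower one (39.6% of all genes called). The Mt- genes were Mt-nd5 (-1.20 ± 0.41 (SE), adjusted p = 0.0161) and Mt-nd6 (-2.04 ± 0.45 (SE), adjusted p = 0.000251), which fell in jejunum and did not pass the test in colon. Ndufa4, raised in colon and not called in jejunum, had a difference of -0.81 ± 0.26 (SE), adjusted p = 0.0112. Ndufa7 (0.68 ± 0.17 (SE), adjusted p = 0.00125) and Ndufb4 (0.68 ± 0.24 (SE), adjusted p = 0.0211) fell in colon and stood at -0.15 and 0.01 in jejunum, not called. Atp5pf (0.63), Cox7a2l (0.52) and Ndufs4 (0.42) differed in the same direction. The series disagreed here: within series 1 alone 26 nuclear members and 4 Mt- genes had a higher response in jejunum and none a lower one, and within series 2 alone 1 nuclear member and 9 Mt- genes had a lower one. With total counts 28 nuclear members had a higher response in jejunum and none a lower one. Within series 1 Mt-nd5 stood at 0.14 and Ndufa4 at 0.07. Leaving out one replicate number at a time gave 2 to 12 nuclear members and 1 to 5 Mt- genes, with 2 nuclear members without number 1, 2 or 4, 12 without number 5, and 1 Mt- gene without number 4, 5 or 6.

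From day 4 to day 7 the Mt- genes fell in all 5 irradiated arms of jejunum and in 4 of the 5 arms of colon. In colon 11 of 13 Mt- genes were lower at day 7 without treatment (36.5% of all genes called), 10 with oral vehicle (27.4%), 11 with powder (49.3%) and 12 with injected vehicle (27.4%). With injection only Mt-co1 (-1.18 ± 0.30 (SE), adjusted p = 0.0037) and Mt-co3 (-1.30 ± 0.27 (SE), adjusted p = 0.000693) were lower and Mt-nd6 was higher (0.74 ± 0.23 (SE), adjusted p = 0.0146), where 40.8% of all genes were called. Without the libraries numbered 6 this became 5 lower and 0 higher. In jejunum 13 Mt- genes were lower without treatment (41% of all genes called), 8 with oral vehicle (25.7%), 12 with powder (36.9%), 13 with injected vehicle (50.6%) and 13 with injection (41%). The largest medians were those of the injected arms of jejunum, -2.11 and -2.18.

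Those jejunal counts were not equally firm. With oral vehicle the 8 became 3, 1 and 0 without the libraries numbered 4, 5 and 6, and with powder the 12 became 7, 6 and 7 without those numbered 1, 2 and 5. Total counts gave 3 and 7 in these arms. Within series 1 alone 0 Mt- genes were called in the untreated, oral vehicle and powder arms of jejunum, with medians of -1.21, -0.79 and -1.12. In colon, series 2 alone called 0 with oral vehicle and 4 with powder, and series 1 alone 6 without treatment.

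In colon, nuclear members were called lower at day 7 than at day 4 most often with powder (44 of 70 lower, 0 higher) and with injection (29 lower, 1 higher), which is a comparison of counts and not a test between arms. Few were called without treatment (3 lower, 1 higher) and with injected vehicle (3 lower, 1 higher), and 10 were lower and 1 higher with oral vehicle. Of all genes 23.1% were called lower with powder, 21.6% with injection, 18.5% without treatment, 11.4% with injected vehicle and 14.7% with oral vehicle. The member counts lie above these shares with powder and injection, below them without treatment and with injected vehicle, and near them with oral vehicle. With powder the largest falls were those of Cox7b (-1.11 ± 0.25 (SE), adjusted p = 0.00042), Ndufa7 (-0.94 ± 0.13 (SE), adjusted p = 1.49e-06) and Ndufb2 (-0.93 ± 0.20 (SE), adjusted p = 0.000297). With injection they were those of Cox7a1 (-2.09 ± 0.64 (SE), adjusted p = 0.0125), Cox6a1 (-0.97) and Cox4i1 (-0.94). Cox7a1 with injection ran from 2.65 to 26.8 CPM (median 19.0) at day 4 and from 1.70 to 8.34 CPM (median 3.55) at day 7, with overlap at the lowest day 4 library. In the powder arm 7 of 8 smooth muscle markers were called lower at day 7 (summed 16.5 to 178 CPM at day 4 and 10.6 to 24.4 at day 7) and 4 of 4 neutrophil markers higher, and in the injection arm 3 of 4 colonocyte markers were lower and 4 of 4 proliferation markers higher. Their part in these results was not tested. The powder count was 25 without the libraries numbered 1, 28 without those numbered 3, and 63 within series 1 against 2 within series 2. The injection count of 30 became 13 without those numbered 3 or 5, 19 without 2 and 48 without 1, and 6 with total counts. The other colon counts moved as well, from 4 to 9 or 8 without number 2 or 6 and to 12 with total counts in untreated rats, from 11 to 4 without number 2, 3 or 4 with oral vehicle, and from 4 to between 1 and 11 with injected vehicle (13 with total counts). Within series 1 alone 16 nuclear members were lower and 1 higher in untreated colon, and within series 2 alone 0 and 3.

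Ndufa4 was the nuclear member called higher at day 7 in colon without treatment (0.81 ± 0.13 (SE), adjusted p = 1.66e-05), with oral vehicle (0.57 ± 0.13 (SE), adjusted p = 0.00162), with injected vehicle (0.66 ± 0.14 (SE), adjusted p = 0.00192) and with injection (0.67 ± 0.14 (SE), adjusted p = 0.000939). With powder it stood at 0.29 ± 0.13 (SE), adjusted p = 0.0652. With injected vehicle it ran from 18.8 to 27.5 CPM (median 21.0) at day 4 and from 21.0 to 49.8 CPM (median 36.0) at day 7, where 1 day 7 library stayed at the day 4 level. In jejunum Ndufa4 was not called in any arm (-0.04, -0.14, 0.06, -0.04 and -0.27 from untreated and oral vehicle to powder and the injected arms). Whether the arms differ from each other was not tested.

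In jejunum the nuclear members called from day 4 to day 7 were mostly higher: 14 were higher and 1 lower without treatment (20.3% of all genes were called higher), 15 and 0 with powder (18.3%), 12 and 1 with injected vehicle (25.5%), 9 and 1 with injection (19.7%), and 1 and 1 with oral vehicle (11.2%). Out of 69 tested members, these counts lie near or below the share of all genes called higher. Ndufs1 was among them in all 5 arms, with an adjusted p of 0.05 after rounding with oral vehicle (0.88 without treatment, 0.42 with oral vehicle, 0.59 with powder, and 0.71 and 0.72 with injected vehicle and injection). The core subunit Ndufs8 rose in 4 (0.83, 0.89, 0.82 and 0.68, without oral vehicle), as did the catalytic Atp5f1a (0.73, 0.53, 0.64 and 0.65). Ndufs1 with injection ran from 107 to 222 CPM (median 140.0) at day 4 and from 190.3 to 281 CPM (median 262) at day 7, with overlap. No complex IV member was called higher in untreated jejunum, where 8 of the 14 were of complex I, 2 of complex III, 1 of complex II and 3 of complex V. Without treatment the median of the nuclear members was 0.23 and that of the Mt- genes -1.46.

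The size of these jejunal counts depends on the scaling and on single libraries. With total counts 57, 12, 55, 57 and 42 nuclear members were higher in the untreated, oral vehicle and powder arms and the injected vehicle and injection arms, and the median of all genes was 0.42 in the first of these. Leaving out a replicate number gave 7 to 26 called nuclear members without treatment (26 without number 3), 0 to 5 with oral vehicle (5 without number 3), 5 to 16 with powder (5 without number 6), 4 to 23 with injected vehicle (23 without number 6) and 3 to 15 with injection (3 without number 1, 2 or 3). Within series 1 alone none was called in the untreated, oral vehicle and powder arms, and within series 2 alone 12, 6 and 9 were higher. Of the 4 proliferation markers, 4 were called higher at day 7 in each of these arms but oral vehicle, where 2 were. Their sum ran 32.2 to 240.3 CPM at day 4 and 180.1 to 469.7 CPM at day 7 in untreated jejunum. Enterocyte markers were called lower in each arm, 3 or 4 of 6, with none higher. The part of these markers in the differences was not tested.

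**Figure D5:**
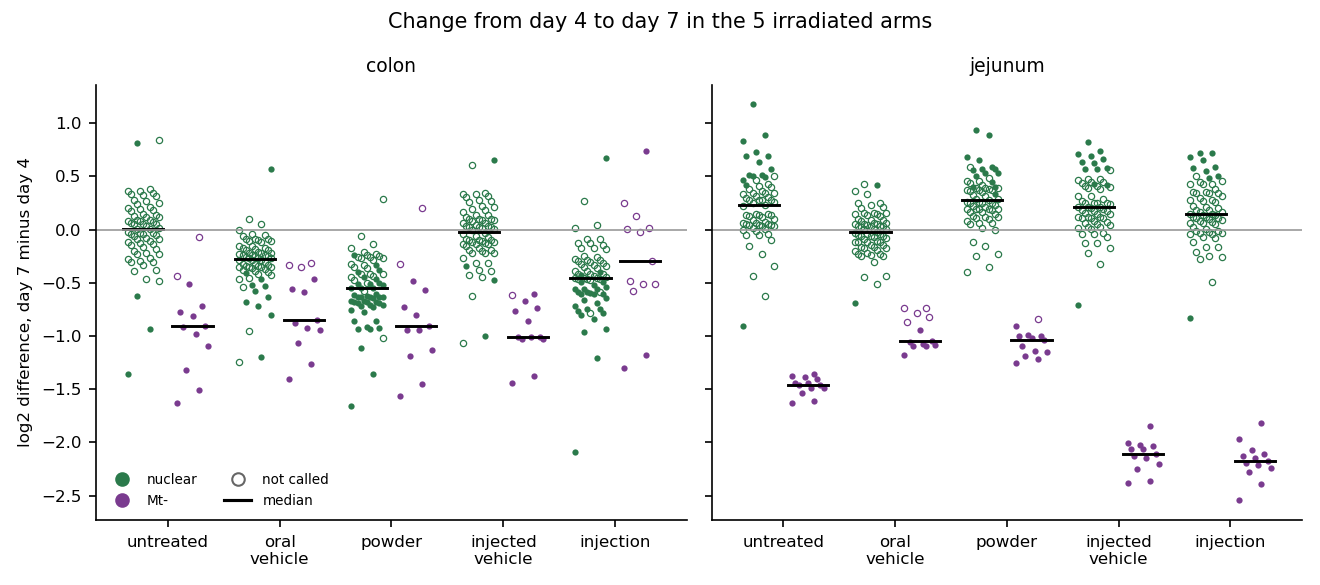
Log2 difference of day 7 against day 4 (y axis) for nuclear members (green) and Mt- genes (purple) in the 5 irradiated arms (x axis) of colon and jejunum, with filled points called and lines at medians. Mt- medians lie below 0 in all 10 comparisons, down to -2.18 in jejunum with injection. Nuclear medians lie at -0.55 in colon with powder and at 0.23 in untreated jejunum.

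Powder was compared with oral vehicle, and injection with injected vehicle, to ask how each preparation altered these genes after irradiation. Nuclear members were called in 1 of these 8 comparisons, in colon at day 4 with powder, where 5 of 70 were higher and none lower (11.8% of all genes called, 4.89% higher and 6.9% lower). They were Ndufa5 (0.61 ± 0.16 (SE), adjusted p = 0.0131), Ndufa2 (0.50 ± 0.12 (SE), adjusted p = 0.00671), Ndufa13 (0.47 ± 0.16 (SE), adjusted p = 0.0466), Ndufa11 (0.46 ± 0.14 (SE), adjusted p = 0.0298) and the ATP synthase ring gene Atp5mc2 (0.44 ± 0.15 (SE), adjusted p = 0.0457). Ndufa5 ran from 47.3 to 115 CPM (median 73.1) with vehicle and from 75.7 to 143 CPM (median 117) with powder, and the groups overlapped. The share of members called in all lies below that of all genes, and the share called higher lies near theirs. All 70 tested nuclear members had a difference above 0, with a median of 0.41 against 0.01 for all genes. These members include the low Cox4i2 and Ndufv3-ps1, share the same libraries and are not independent observations, so their common sign is a description and not a test. No Mt- gene was called there by edgeR or DESeq2, and in edgeR none had an unadjusted p under 0.05. The 4 neutrophil markers were all called lower in the same comparison, with sums of 4.72 to 101 CPM with vehicle and 2.26 to 19.0 with powder, and their part in the result was not tested. The count of members called moved from 0 without the libraries numbered 1 to 18 without those numbered 2, with 1 without number 3, 2 without number 4 or 5, 8 by DESeq2, 35 with total counts and 0 within either series.

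In the other 7 comparisons with a preparation no member was called by edgeR or DESeq2. The background was 0%, 0.008% and 0.008% of all genes for powder in colon at day 7 and in jejunum at day 4 and day 7, and 0%, 0%, 0% and 0% for injection in colon and jejunum at both days. At an unadjusted p under 0.05 edgeR gave 1, 0 and 0 nuclear members and no Mt- gene for powder, and 0, 1, 0 and 1 nuclear members and 5, 2, 0 and 0 Mt- genes for injection, in the same order. Cox7a1 in colon at day 7 ran from 2.49 to 25.5 CPM (median 5.33) with injected vehicle and from 1.70 to 8.34 CPM (median 3.55) with injection, with overlap. Oral vehicle against no treatment also called no member in either tissue at either day (0%, 0.00752%, 0% and 0.008% of all genes called), with 0, 10, 0 and 0 nuclear members and 0, 0, 2 and 0 Mt- genes at an unadjusted p under 0.05. Powder and injection were not compared with each other, since their libraries are of different series.

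The genes that build and run the chain were followed in 7 lists, chosen with earlier results of these data known. Their counts are read against the shares of all genes called, which were 24.6% higher and 22.3% lower in colon at day 4, 32.9% and 30.8% at day 7, and in jejunum 25% and 18.9% at day 4 and 31.4% and 27.4% at day 7. Of 36 tested assembly factors, which insert cofactors and join subunits, 2 rose and 16 fell in colon at day 4 and 4 and 16 at day 7, while in jejunum 5 rose and 6 fell at day 4 and 15 and 5 at day 7. The shares that fell in colon lie above those of all genes at both days, as does the share that rose in jejunum at day 7, and the other shares lie below. Ndufaf4, an assembly factor of complex I, rose in all 4 comparisons (0.58, 0.86, 1.38 and 2.00), the last with 2.00 ± 0.36 (SE), adjusted p = 1.83e-05. In colon Lyrm7, which serves the Rieske protein of complex III, fell by 1.10 and 0.67 on the log2 scale, and Cox10, which makes the heme of complex IV, by 1.02 at day 4. Ttc19, a complex III factor, fell at day 7 in colon (-1.49) and jejunum (-0.67).

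Of the 32 genes for transcription, replication and RNA of the mitochondrial genome, 9 rose and 9 fell in colon at day 4 and 13 and 6 at day 7, and in jejunum 13 rose and 4 fell at day 4 and 18 and 2 at day 7. Both shares lie near those of all genes in colon at day 4, the risen share lies above in the other 3 comparisons, and the fallen share lies below in them. The packaging and transcription factor Tfam fell in colon (-0.42 ± 0.13 (SE), adjusted p = 0.00711 at day 4 and -0.33 at day 7) and rose in jejunum (0.75 at day 4 and 1.30 ± 0.27 (SE), adjusted p = 0.000141 at day 7). Its rise in jejunum at day 7 stood beside the fall of all 13 Mt- transcripts. The polymerase Polrmt was called once, in colon at day 4 (-0.29), and Tfb2m once, in jejunum at day 7 (0.59). The DNA polymerase Polg rose in colon at day 7 (1.45) and its accessory subunit Polg2 fell there (-1.06). Of 70 mitochondrial ribosomal proteins, 2 rose and 20 fell in colon at day 4, 26 and 13 at day 7, and in jejunum 9 and 8 at day 4 and 39 and 2 at day 7. The fallen share lies above that of all genes in colon at day 4 and the risen share in jejunum at day 7, in colon at day 7 the risen share lies near it, and the remaining shares lie below. The median of this list in jejunum at day 7 was 0.43, beside -0.41 for the nuclear chain members (which turned with total counts) and -1.54 for the Mt- genes.

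Among 20 regulators of nuclear respiratory genes tested in colon (19 in jejunum), 5 rose and 8 fell at day 4 and 7 and 7 at day 7 in colon, and 4 and 3, and 6 and 6, in jejunum. Only the share that fell in colon at day 4 lies well above that of all genes, and the others lie near it. The coactivator Ppargc1a fell in all 4 comparisons (-1.82 ± 0.68 (SE), adjusted p = 0.0276 in colon at day 4, -1.97 at day 7, -1.05 and -0.98 in jejunum). Ppargc1b fell in colon at day 4 (-1.46) and rose in jejunum at day 7 (1.11). Its relative Pprc1 rose in jejunum (2.13 and 2.44). The lipid sensor Ppara fell in colon (-1.79 and -2.58), and the growth regulator Myc rose in colon at day 4 (1.59) and in jejunum at both days (2.86 and 2.54). Esrra was not called in any of them, Nrf1 rose in colon at day 7 (0.38) only, and Gabpa rose at day 7 in colon (0.49) and jejunum (0.29).

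Of 26 pyruvate and citric acid cycle enzymes, 1 rose and 10 fell in colon at day 4, 1 and 5 at day 7, and in jejunum 2 and 17 at day 4 and 5 and 7 at day 7. The fallen share lies above that of all genes at day 4 in both tissues, below it in colon at day 7 and near it in jejunum at day 7, and the risen shares lie below in all 4. The mRNA of citrate synthase (Cs) was called in none of the 4, with differences from -0.18 to 0.23. The activity of this enzyme, often used as a measure of mitochondrial mass, was not measured here. The pyruvate dehydrogenase kinases Pdk2 and Pdk4 fell in colon at day 7 (-2.05 and -3.53). Of 19 glycolysis genes, 8 rose and 4 fell in colon at day 4, 11 and 2 at day 7, and 3 and 6, and 7 and 5, in jejunum. The risen share lies above that of all genes in colon at both days, and in jejunum the fallen share lies above at day 4 while the shares at day 7 lie near. Ldhb, a lactate dehydrogenase subunit, rose in all 4 (2.62, 3.20, 6.45 and 4.45), and Pfkfb3, an activator of glycolysis, rose in colon (4.26 and 3.18).

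Of 29 carriers and outer membrane genes, 2 rose and 14 fell in colon at day 4, 6 and 7 at day 7, and 3 and 7, and 12 and 3, in jejunum. The fallen share lies above that of all genes in colon at day 4, as does the risen share in jejunum at day 7, both shares in colon at day 7 lie below, and the fallen share in jejunum at day 4 lies near. Cytochrome c (Cycs), which carries electrons from complex III to IV, fell in colon at both days (-0.62 and -0.83) and in jejunum at day 7 (-0.43). Slc25a4, the heart and muscle form of the ADP/ATP carrier, rose in all 4 comparisons (1.43, 2.97, 1.73 and 3.32), while the muscle form Cox7a1 of the chain fell in the same ones. The outer membrane channel Vdac1 was called once, in colon at day 7 (0.21).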

How the data were processed

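RNA-seq of colon and jejunum epithelium was deposited by the authors as 2 tables of raw counts per gene, aligned with STAR 2.7.10a to mRatBN7.2 per the submitters' processing notes. Which counter, annotation and strand setting were used is not given in the sources used here. Of the libraries, 36 are in both tables and were used once. Counts were modelled with edgeR 4.0.16 (R 4.3.3, limma 3.58.1): filterByExpr, TMM factors and quasi-likelihood F tests, with p-values adjusted by the Benjamini-Hochberg method over all genes tested in a comparison. Each tissue had 1 fit of 42 libraries (non-irradiated, untreated and oral groups, with series as a term) and 1 of 24 injected libraries, and tissues were compared in 84 libraries. In all 29 comparisons were made. CPM levels use TMM factors over all 132 libraries. P-values measure the spread between these libraries.

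Named genes were all Mt- genes, the 3 highest and 3 lowest called nuclear members of a comparison with a mean of at least 5 CPM, a fixed panel, and in each list the 2 highest and 2 lowest called genes with fixed regulators. The members and lists were chosen with earlier results of these data known. Some items that match the symbols are not reported here. The tests were first tried on simulated data. Alternatives were DESeq2 1.42.0 as a test, its size factors in edgeR, no filter, Mt- genes left out of the library sizes, a replicate block, single series, leaving out each replicate number and, chosen after the data were seen, total counts without TMM factors.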

Additional observations from a re-analysis of the deposited data

Results flagged for a closer look

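In 2 of 44 combinations of a group and a share, 1 library lay far from the others in its Mt- or nuclear share. Chance alone gives about 1 in 20, so this count lies near what chance gives. In colon at day 4 with injected vehicle, replicate 5 held 19.6% of its counts in Mt- genes, and the next library held 12.1%. In jejunum at day 7 with injection, replicate 6 held 9.16%, and the next held 7.23%.

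For 8 members the irradiation response at day 7 differed between jejunum and colon by the interaction test (edgeR, Benjamini-Hochberg adjusted). The response in jejunum was lower for Mt-nd6 by -2.04 ± 0.45 (SE) on the log2 scale (adjusted p = 0.000251), for Mt-nd5 by -1.20 (adjusted p = 0.0161) and for Ndufa4 by -0.81 (adjusted p = 0.0112). It was higher for Ndufa7 by 0.68 (adjusted p = 0.00125), Ndufb4 by 0.68 (adjusted p = 0.0211), Atp5pf by 0.63 (adjusted p = 0.0359), Cox7a2l by 0.52 (adjusted p = 0.0425) and Ndufs4 by 0.42 (adjusted p = 0.0374). The differences of Mt-nd5 and Ndufa4 turned sign within series 1 alone (0.14 and 0.07), as the report gives.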

How the results depend on the processing

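Of the 58 counts of called members, DESeq2 moved 5 by over 1.5 times, its size factors 2, no filter 5, leaving Mt- genes out of library sizes 2, total counts 14, series 1 alone 22 of 42 and series 2 alone 15 of 42. These are totals of higher and lower calls, so a turn of direction alone does not count as moved. Between the non-irradiated tissues the called nuclear members turned from mostly higher to mostly lower with total counts, as given above. For each moved value the cause was not tested. With DESeq2, day 7 against day 4 called 4 nuclear members in jejunum with oral vehicle and 7 in colon with injected vehicle, and 5 Mt- genes in colon with injection. Without a filter it called 7 nuclear members in colon and 0 in jejunum with oral vehicle, and irradiation called 1 Mt- gene in colon at day 4. Powder in colon at day 4 called 3 nuclear members with DESeq2's size factors, 2 without a filter, 3 without Mt- genes in the sizes and 8 with DESeq2, and the tissue difference at day 7 called 3, 2, 2 and 3. Total counts gave 35 and 28 for these, 16 for jejunum at day 7 and, for day 7 against day 4, 12, 13 and 6 nuclear members in untreated, injected vehicle and injection colon (5 Mt- genes in the last) and 58, 12, 55, 57 and 42 in the 5 jejunal arms, with 3 and 7 Mt- genes with oral vehicle and powder.

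Series 1 alone called 2 nuclear members and 0 Mt- genes in colon at day 4, 0 and 2 in jejunum at day 4, 1 and 0 in jejunum at day 7, 14 and 2 between non-irradiated tissues, 2 and 7 for the tissue difference at day 4 and 26 and 4 at day 7, and 0 with powder. For day 7 against day 4 it called 17 and 6 in untreated colon, 5 nuclear members in oral vehicle colon, and 0 and 0 in the 3 jejunal arms it holds. Series 2 alone called 4 Mt- genes in colon and 3 in jejunum at day 4, 22 nuclear members in colon at day 7, 1 and 2 and 1 and 9 for the tissue differences, 0 with powder, and for day 7 against day 4 it called 0 and 0 in oral vehicle colon, 2 and 4 in powder colon, 7 nuclear members in oral vehicle jejunum and 9 and 5 in powder jejunum. Gene values that turned sign included Mt-nd3 in jejunum at day 4 (-0.90, series 2). In jejunum at day 7 they included Mt-nd1 (0.16), Mt-nd3 (0.19), Mt-nd4l (0.0091) and Mt-nd4 (0.20) with series 1. Uqcrc1 (0.39) and Cox5a (0.0567) turned there with total counts, which raised the median of all genes by 0.51. Falls in jejunum at day 7 smaller than this shift can turn as well, so the list is not complete. In the tissue differences within series 1, Mt-nd3 (1.92) turned at day 4. Mt-atp8 (1.49), Mt-nd5 (0.14) and Ndufa4 (0.0711) turned at day 7.

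Leaving out one replicate number gave 28 to 57 and 0 to 3 called nuclear and Mt- members in colon at day 4, 39 to 47 and 11 to 12 at day 7, 21 to 63 and 0 to 0 in jejunum at day 4, 7 to 40 and 9 to 13 at day 7, 27 to 37 and 9 to 11 between non-irradiated tissues, 2 to 12 and 1 to 5 for the tissue difference at day 7 and 0 to 18 and 0 to 0 with powder in colon at day 4. For day 7 against day 4 it gave 3 to 9 and 10 to 12, 4 to 16 and 7 to 10, 25 to 65 and 10 to 11, 1 to 11 and 10 to 13 and 13 to 48 and 3 to 5 in colon (in the order untreated, oral vehicle, powder, then injected vehicle and injection) and 7 to 26 and 13 to 13, 0 to 5 and 0 to 8, 5 to 16 and 6 to 12, 4 to 23 and 13 to 13 and 3 to 15 and 13 to 13 in jejunum. A replicate block moved 0 of the 58 counts, among them 54 nuclear members in colon at day 4. The numbers were not taken to pair the samples, since every same-number correlation was over 0.1 in 0 of 26 comparisons within a tissue and in 0 of 11 conditions across tissues. Across tissues 24 of 66 samples correlated best with their own number, more than the 1 in 6 that chance gives. Colon and jejunum libraries also share numbers in their names, but the labels do not state that these come from the same rat. Both are hints, and the main tissue tests treated the libraries as independent. Depth limits low members such as Cox4i2, and single libraries and the series moved the counts as given above.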
